A study of Mus musculus with 22 samples.

Results

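The RNA levels of 8 RNA-binding proteins that act at backsplicing or on circular RNAs were followed in the hippocampus (HPC), cortex (Cx) and cerebellum (CRBM) of wild-type (WT) mice and of mice deficient in circTulp4 (CD): Adar, Adarb1, Dhx9, Ilf2, Hnrnpl, Mbnl1, Mbnl2 and Ago2. They were chosen by name, with earlier results of these data known. All 8 of 8 were found among the 23037 genes with a transcript matched to a gene symbol, each represented by the RefSeq transcript with the highest total over 22 libraries. RNA was counted near the poly(A) tail by CelSeq2, a 3′ RNA-seq protocol. CD mice carry a changed splice acceptor at the start of circTulp4, a circular RNA of the Tulp4 gene, in a C57BL/6 line that goes back to 1 founder male, and WT mice have the unchanged site. The groups were 3 WT and 4 CD hippocampi, 4 WT and 4 CD cortices, and 4 WT and 3 CD cerebella, dissected from 4 WT and 4 CD mice, whose numbers in the labels (m118 and so on) are used here. The study's own account of the series gives fewer libraries per group than carry labels, and all labelled libraries were used. The age of the mice is not given in the sources used here, and the labels name no treatment.

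Circular RNAs arise when a splice donor joins an acceptor that lies upstream of it, and this backsplicing is favored when inverted repeats in the flanking introns pair with each other. ADAR (Adar) and ADARB1 (Adarb1) edit adenosine to inosine in double-stranded RNA and can loosen such pairs, and the helicase DHX9 (Dhx9) unwinds them. ILF2 (Ilf2) works in a complex that binds double-stranded RNA. HNRNPL (Hnrnpl) and the muscleblind proteins MBNL1 and MBNL2 (Mbnl1, Mbnl2) are splicing regulators that bind introns next to exons, and AGO2 (Ago2) is the Argonaute protein that cleaves targets of microRNAs and binds circular RNAs through them.

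To show the kind of pairing on which Adar, Adarb1 and Dhx9 act, the highest-ranked ungapped match between the introns on either side of circTulp4 is printed. The upstream intron is given 5′ to 3′, followed by the reverse complement of the downstream intron, so that equal letters can pair in the RNA.
Upstream intron: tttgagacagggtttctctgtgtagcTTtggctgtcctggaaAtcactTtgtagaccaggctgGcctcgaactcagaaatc
Reverse complement of downstream intron: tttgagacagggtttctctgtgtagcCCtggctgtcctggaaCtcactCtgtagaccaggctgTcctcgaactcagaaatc
The match ran over 81 bases, of which 76 were the same (93.8%), and capitals mark the 5 that differed. The letters are of the type of B1 elements, a family of short interspersed repeats in the mouse genome.

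The libraries held 2760846 to 8858940 counts with 1 transcript per gene. Regions were told apart by their markers: the summed level of 4 granule cell markers (Gabra6, Neurod1, Pax6, Etv1) was 1338 to 1803 cpm, the counts of a gene scaled to a common library size, in cerebellum and at most 292 cpm elsewhere, and that of 4 cortical layer markers (Rorb, Cux2, Lamp5, Fezf2) was 596 to 736 cpm in cortex and at most 297 cpm elsewhere. Hippocampus libraries differed in 4 choroid plexus markers (Ttr, Folr1, Kl, Kcne2), from 126 to 8234 cpm. As a check of the labels, the counts on Tulp4-201 were set against those on Tulp4-209, another linear transcript of the gene. The excess on Tulp4-201 came to 2.71 to 3.69 cpm in WT hippocampi, from 17 to 24 counts. It came to 0.42 to 0.57 cpm in CD hippocampi m138, m190 and m242, from 3 to 5 counts. The library labelled CD hippocampus m118 had 3.98 cpm, from 16 counts, and thus went against its label, though on few counts. For the genes named at the start, hippocampus tests are also given without it, as are their ratio shifts from hippocampus to cerebellum. Hippocampus results of further genes, ratio shifts from hippocampus to cortex and shares of all genes that differed between regions are given only with it. WT and CD were closer in the other regions, at 1.45 to 6.02 and 0.14 to 1.29 cpm in cortex and at 3.12 to 13.6 and 0.60 to 2.61 cpm in cerebellum. The cortex and cerebellum libraries of m118 had 0.90 and 1.55 cpm, below every WT library of the same region. That the excess marks genotype was not tested apart from these labels.

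The most graded of the 8 genes was Adarb1, which rose from hippocampus to cortex to cerebellum. Hippocampi had 19.1, 16.2 and 15.1 cpm in WT and 20.2, 13.5, 16.5 and 15.5 cpm in CD mice. Cortices had 23.0, 23.4, 21.3 and 18.3 cpm in WT and 21.1, 17.7, 23.8 and 22.6 cpm in CD mice. Cerebella had 32.8, 27.6, 31.6 and 28.8 cpm in WT and 29.9, 24.7 and 30.6 cpm in CD mice. Every cerebellum thus lay above every hippocampus and every cortex, while hippocampus and cortex overlapped, and within each region WT and CD mice overlapped. Mean levels were 16.6 ± 2.34 (SD, n = 7), 21.4 ± 2.32 (SD, n = 8) and 29.4 ± 2.70 cpm (SD, n = 7). The log2 fold change was 0.83 from hippocampus to cerebellum (standard error, 0.10; FDR = 1.61e-07), 0.45 from cortex to cerebellum (0.10; FDR = 0.000370) and 0.38 from hippocampus to cortex (0.10; FDR = 0.00455, all from the quasi-likelihood test of edgeR, with FDR values after Benjamini and Hochberg over 11137 genes). The last of these calls was close to the limit of 0.01: it was lost (edgeR FDR 0.01001 to 0.0170) without CD hippocampus m138, WT hippocampus m240 or m244, WT cortex m162 or m164, or CD cortex m190 or m242.

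Adar had another order, with the cortex highest. WT cortices had 152, 149, 120 and 113 cpm and CD cortices 144, 121, 146 and 114 cpm. WT hippocampi had 114, 89.8 and 87.8 cpm, and CD hippocampi had 117, 102, 105 and 92.4 cpm. WT cerebella had 90.9, 107, 111 and 113 cpm, and CD cerebella had 87.9, 130 and 77.6 cpm. The ranges of the regions overlapped, since the cortices of m244 and m242 lay within the range of the hippocampi and the cerebellum of m190 lay within that of the cortices. Adar was 1.32-fold higher in cortex than in hippocampus (log2 fold change, 0.40; standard error, 0.10; FDR = 0.00376 by edgeR) and fell by 0.38 on the log2 scale from cortex to cerebellum (standard error, 0.10; FDR = 0.00284 by edgeR). Hippocampus and cerebellum did not differ beyond their spread (log2 fold change, 0.02; standard error, 0.11; FDR = 0.895 by edgeR). The call between hippocampus and cortex was lost without WT hippocampus m240 or m244 or WT cortex m162 (edgeR FDR, 0.0135, 0.0146 and 0.01002), and that between cortex and cerebellum without CD cerebellum m118 or m242 (edgeR FDR, 0.0122 and 0.0162).

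**Figure D1:**
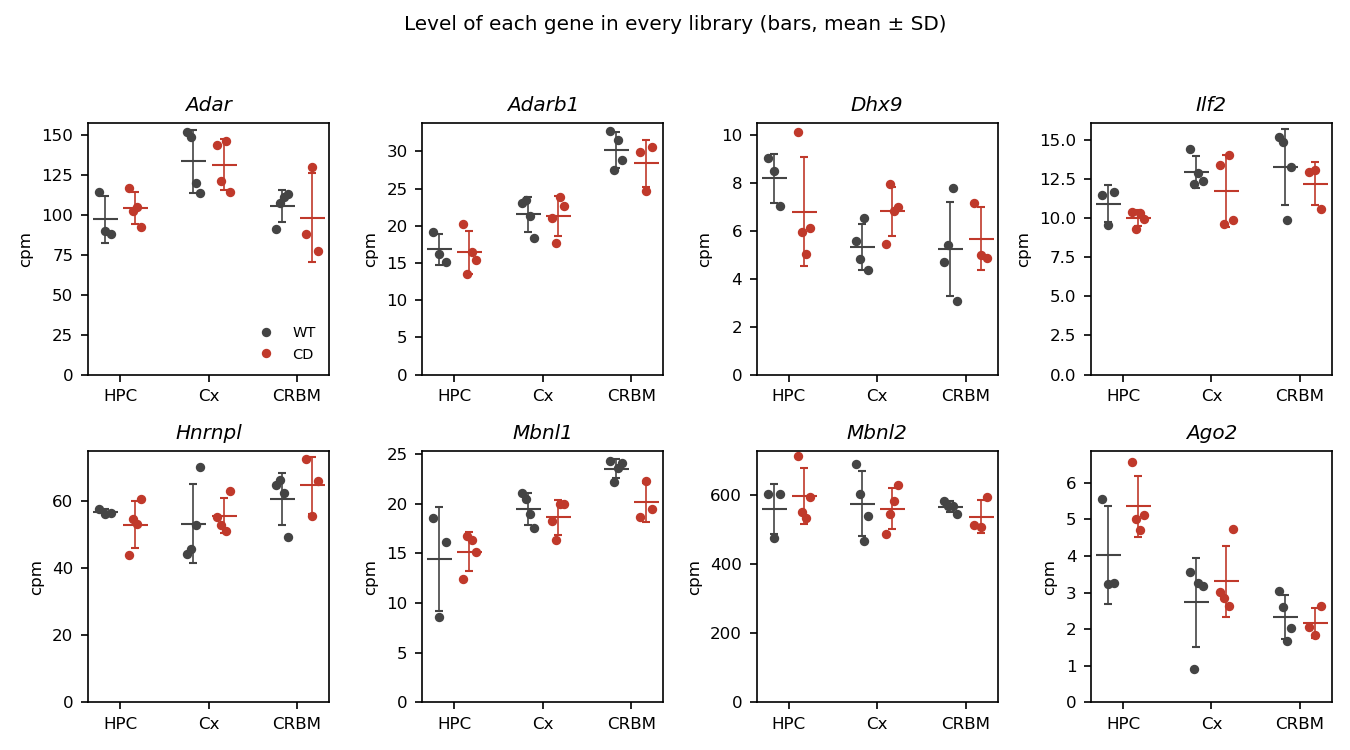
Level of the 8 genes (y axis, cpm after TMM scaling, from 0) in hippocampus (HPC), cortex (Cx) and cerebellum (CRBM), with 1 point per library, WT in gray and CD in red, and bars for the mean ± SD of each group. Adarb1 was at 24.7 to 32.8 cpm in cerebellum and at 13.5 to 20.2 cpm in hippocampus, and WT and CD points overlapped in every panel and region.

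The double-stranded RNA helicase Dhx9 was counted at low depth, with 11 to 71 counts per library. It had a median of 7.04 cpm in hippocampus (5.02 to 10.1 cpm), 6.05 cpm in cortex (4.38 to 7.94 cpm) and 4.98 cpm in cerebellum (3.05 to 7.80 cpm). The 3 ranges overlapped, and the difference between hippocampus and cerebellum did not pass the threshold (log2 fold change, -0.44; standard error, 0.19; FDR = 0.0475 by edgeR). Among WT libraries alone, the log2 fold change from hippocampus to cortex was -0.60 (FDR = 0.129 by edgeR), and among CD libraries alone it was 0.05 (FDR = 0.923 by edgeR). Ilf2 had medians of 10.3 cpm in hippocampus (9.30 to 11.7 cpm), 12.6 cpm in cortex (9.58 to 14.4 cpm) and 13.1 cpm in cerebellum (9.85 to 15.2 cpm). Cortex and cerebellum lay next to each other (log2 fold change, 0.05; standard error, 0.12), and hippocampus lay below the cerebellum by a difference that did not pass the threshold (log2 fold change, 0.29; standard error, 0.12; FDR = 0.0453 by edgeR).

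Hnrnpl, which binds CA-rich RNA and regulates alternative splicing, had medians of 56.2 cpm in hippocampus (43.8 to 60.5 cpm), 52.9 cpm in cortex (44.2 to 70.1 cpm) and 64.8 cpm in cerebellum (49.3 to 72.5 cpm). The highest of its 3 differences, 0.21 on the log2 scale from cortex to cerebellum, had an FDR of 0.0654 by edgeR (standard error, 0.10). It passed at 0.28 (FDR = 0.00884 by edgeR) without WT cortex m244, the cortex with the highest value and the fewest total counts.

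Mbnl1 was higher in cerebellum than in hippocampus, whereas its paralog Mbnl2 did not pass the test between any regions. For Mbnl1, hippocampi had 18.6, 8.59 and 16.2 cpm in WT and 12.4, 16.7, 16.4 and 15.2 cpm in CD mice. Cortices had 21.0, 20.5, 19.0 and 17.5 cpm in WT and 18.3, 16.3, 19.97 and 19.99 cpm in CD mice. Cerebella had 24.3, 22.2, 23.6 and 24.1 cpm in WT and 18.6, 22.3 and 19.5 cpm in CD mice. The highest hippocampus, at 18.60 cpm, lay just below the lowest cerebellum, at 18.64 cpm, so these 2 regions did not overlap, and the cortex overlapped both. From hippocampus to cerebellum Mbnl1 rose by 0.56 on the log2 scale (standard error, 0.13; FDR = 0.000460 by edgeR), and from hippocampus to cortex the value was 0.37 (standard error, 0.12; FDR = 0.0202 by edgeR). WT hippocampus m240 was the lowest of the 22 libraries, and without WT hippocampus m162 the cortex passed as well (log2 fold change, 0.49; FDR = 0.00346 by edgeR). Among CD libraries alone the difference between hippocampus and cerebellum was 0.39 (FDR = 0.0693 by edgeR).

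Mbnl2 had medians of 594 cpm in hippocampus (476 to 715 cpm), 563 cpm in cortex (468 to 689 cpm) and 568 cpm in cerebellum (506 to 594 cpm). Its 3 log2 fold changes lay between -0.07 and -0.03, with standard errors of 0.09, and edgeR's FDR was 0.526 or higher. With 1354 to 5033 counts per library it was the most deeply counted of the 8 genes, so that counting error was small against the spread between mice.

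Ago2 was the least counted, with 4 to 43 counts per library. Hippocampi had 5.56, 3.22 and 3.26 cpm in WT and 6.58, 4.999, 4.72 and 5.11 cpm in CD mice. Cortices had 3.56, 0.919, 3.27 and 3.18 cpm in WT and 3.01, 2.85, 2.63 and 4.75 cpm in CD mice. Cerebella had 3.04, 2.62, 1.67 and 2.03 cpm in WT and 2.05, 1.84 and 2.62 cpm in CD mice. Every hippocampus was above every cerebellum, and the cortex overlapped both. The log2 fold change from hippocampus to cerebellum was -1.004 (standard error, 0.25; FDR = 0.00107 by edgeR). Ago2 entered the test through 3 hippocampi that reached 5 cpm, with 0 cortices and 0 cerebella that did, so a difference in this direction was favored by the filter; without the filter the value was -0.99 (FDR = 0.00105 by edgeR). It was the 1 gene of the 8 past the 2-fold limit of the study in any comparison of regions, and only just: with the mouse as a block the value was -0.98, without the library labelled CD hippocampus m118 it was -0.96 (FDR = 0.00220 by edgeR), and in 16 of 22 fits with a library left out it stayed past both thresholds. Among WT libraries alone it was -0.75 (FDR = 0.0766 by edgeR). The RefSeq gene of Ago2 ends at chr15:73101625 on the minus strand, while its GENCODE annotation runs on to 73095844. RNA that ends beyond the RefSeq limit may have gone uncounted, and its part in the level of Ago2 and in the region difference was not tested.

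All 8 genes reached 5 cpm in at least 2 libraries, the filter for the comparison of regions: 6 in all 22 libraries, Dhx9 in 18 and Ago2 in 3. These 3 were hippocampi, so the filter favored a call or a separate range of Ago2 with the hippocampus higher. An FDR of 0.01 was passed by 2 of the 8 genes between hippocampus and cortex (Adar, Adarb1), where 25.9% of all genes tested did. Between hippocampus and cerebellum 3 passed (Adarb1, Mbnl1, Ago2), against 50.7% of all genes, and between cortex and cerebellum 2 passed (Adar, Adarb1), against 51.7%. With the 2-fold limit added, the 8 genes gave 0, 1 and 0 calls, against backgrounds of 8.41%, 22.8% and 22.6%. The ranges of 2 regions were separate for 0 genes between hippocampus and cortex (14% of all genes), for Adarb1, Mbnl1 and Ago2 between hippocampus and cerebellum (35.9%), and for Adarb1 between cortex and cerebellum (33%). The median absolute log2 fold change of the 8 genes was 0.32, 0.37 and 0.20 in these 3 comparisons, beside 0.23, 0.43 and 0.43 over all genes tested. Without the library labelled CD hippocampus m118 the same genes were called, and Adarb1 differed between hippocampus and cerebellum by 0.87 and Mbnl1 by 0.51 (edgeR FDR, 7.34e-08 and 0.00129). Among WT or CD libraries alone, Adar and Adarb1 did not pass between hippocampus and cortex (edgeR FDR, 0.0314 to 0.0872), Adar did not pass between cortex and cerebellum (0.0474 and 0.0266), and Adarb1 did not pass there in CD libraries (0.0178). In bulk tissue, a lower level can reflect fewer cells that express a gene or less RNA per cell, which cannot be told apart. The cell type markers moved with the regions in the same libraries, with 4 astrocyte markers (Aqp4, Gfap, Slc1a3, Aldh1l1) at 1054 to 1336 cpm in hippocampus, 475 to 724 cpm in cortex and 808 to 1191 cpm in cerebellum, and 4 Purkinje cell markers (Pcp2, Calb1, Car8, Itpr1) at 330 to 391, 475 to 648 and 5354 to 6222 cpm, and their part in the region differences was not tested.

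**Figure D2:**
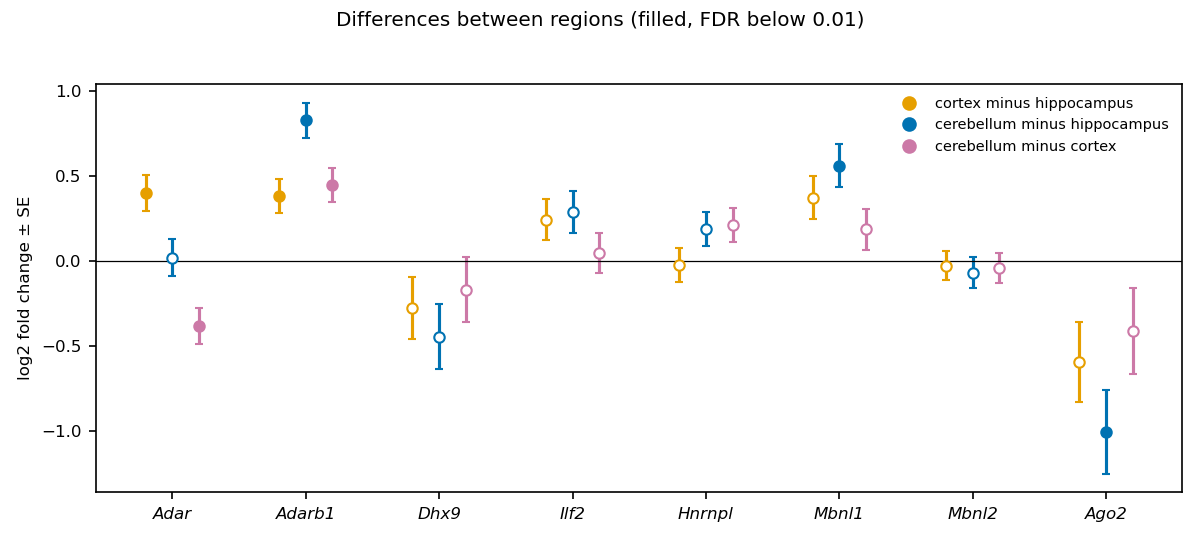
Differences between regions (y axis, log2 fold change, with bars for the standard error of edgeR's fit) for the 8 genes, with filled points at an FDR below 0.01. Adarb1 was called in all 3 comparisons, at 0.38, 0.83 and 0.45, and the points of Mbnl2 lay within 0.07 of 0.

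Because these values depend on how libraries are scaled, pairs of related genes were also set against each other within each library, and the log2 ratio of their counts was compared between regions of the same mice. Only shifts of a ratio are read here, not its size, as the 3′ counts of 2 genes need not be on the same footing. The ratio of Adarb1 to Adar was higher in cerebellum than in hippocampus in 6 of 6 mice, by 0.80 ± 0.36 on the log2 scale (SD, n = 6; two-sided exact permutation test by sign flips, p = 0.03125). It was higher in cerebellum than in cortex in 7 of 7 mice, by 0.81 ± 0.36 (SD, n = 7; exact p = 0.015625), and hippocampus and cortex did not differ beyond the spread between mice (-0.01 ± 0.17, SD, n = 7; exact p = 0.891). Both genes had risen from hippocampus to cortex by a like amount, and from cortex to cerebellum Adarb1 rose while Adar fell. Per library, the counts of Adarb1 came to 13.2% to 18.1% of those of Adar in hippocampus, 14.6% to 19.8% in cortex and 19.0% to 39.4% in cerebellum.

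The ratio of Mbnl2 to Mbnl1 was lower in cerebellum than in hippocampus in all 6 mice, by a mean log2 difference of -0.71 ± 0.35 (SD, n = 6; exact p = 0.03125). The ratio of Ago2 to Ago1, a paralog that lacks strong slicing activity, was lower in cerebellum than in hippocampus in all 6 mice, at -1.09 ± 0.46 (SD, n = 6; exact p = 0.03125). These p values were the smallest the design allowed, 0.03125 with 6 mice and 0.015625 with 7. Of 9 tests, 4 were at that smallest value, and after Benjamini-Hochberg adjustment over the 9 the lowest was 0.0703, so that none of these exact tests passed 0.05 after correction. The other 5 had exact p values of 0.0625 to 0.891. Without the library labelled CD hippocampus m118, the shifts from hippocampus to cerebellum were 0.76 for Adarb1/Adar, -0.64 for Mbnl2/Mbnl1 and -0.94 for Ago2/Ago1, each with an exact p of 0.0625, the smallest that 5 mice allow.

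**Figure D3:**
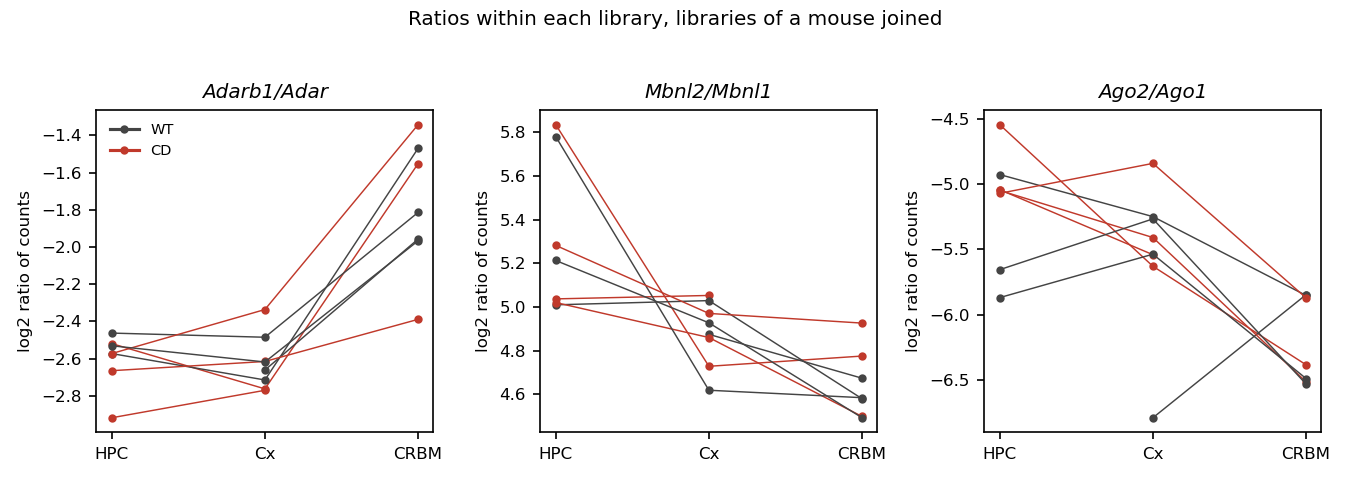
Log2 ratio of the counts of 2 genes in the same library (y axis) in hippocampus (HPC), cortex (Cx) and cerebellum (CRBM), with lines that join the libraries of a mouse, WT in gray and CD in red. The line of every mouse with a cortex and a cerebellum library rose for Adarb1/Adar from cortex to cerebellum, by 0.23 to 1.25.

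Among the paralogs, Adarb2, an ADAR family member without known editing activity, went the other way from Adarb1 between hippocampus and cortex, from 18.7 ± 2.69 (SD, n = 7) to 12.4 ± 3.38 cpm (SD, n = 8; log2 fold change, -0.60; standard error, 0.14; FDR = 0.00114 by edgeR). Ago1 was lower in cortex, at 135 ± 15.5 cpm (SD, n = 8), than in hippocampus, at 170 ± 13.1 cpm (SD, n = 7; log2 fold change, -0.34; FDR = 0.00108 by edgeR), or in cerebellum, at 172 ± 13.2 cpm (SD, n = 7; log2 fold change to cerebellum from cortex, 0.35; FDR = 0.000401 by edgeR). Hnrnpll, Ago3 and Ago4 passed in none of the 3 comparisons of regions, with edgeR FDR values of 0.0504 to 0.989. Mbnl3 had 45 counts in all 22 libraries together and was not tested.

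Of 13 further backsplicing regulators, 8 passed the filter. Genes that failed it, here and in the lists below, were not tested, which does not show that they are absent from the tissue. Nova1, a neuronal splicing factor, was 17.6 ± 2.34 cpm in hippocampus (SD, n = 7), 37.6 ± 4.63 cpm in cortex (SD, n = 8) and 46.3 ± 2.15 cpm in cerebellum (SD, n = 7), with log2 fold changes of 1.09 and 1.40 over hippocampus (standard errors, 0.09; FDR = 5.40e-10 and 1.32e-12 by edgeR). Its paralog Nova2 was lower in cerebellum, at 61.9 ± 3.76 cpm (SD, n = 7), than in hippocampus, at 139 ± 3.46 cpm (SD, n = 7), or cortex, at 159 ± 12.3 cpm (SD, n = 8; log2 fold changes, -1.16 and -1.36; standard errors, 0.06; FDR = 3.74e-14 and 1.03e-15 by edgeR). In this list 1 gene rose and 2 fell from hippocampus to cortex, 1 rose and 2 fell from hippocampus to cerebellum, and 4 rose and 1 fell from cortex to cerebellum at an FDR below 0.01, with medians of -0.21, 0.12 and 0.28 on the log2 scale beside -0.01, 0.02 and 0.02 over all genes. Of all genes tested, 25.9%, 50.7% and 51.7% passed that FDR in these comparisons. The median absolute log2 fold changes of the list were 0.27, 0.32 and 0.33.

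Of 10 genes for export, sensing and decay of circular or double-stranded RNA, 7 were tested. In the same order of comparisons 0, 4 and 3 of them passed, against 25.9%, 50.7% and 51.7% of all genes, with 0 past the 2-fold limit. Of 10 genes of the Argonaute and microRNA machinery, Ago1, Ago3 and Ago4 among them, 9 were tested. Of these 1, 2 and 2 passed, against the same shares of all genes. Tnrc6a, a GW182 protein that Argonautes bind to repress their targets, was 109 ± 10.9 cpm in cerebellum (SD, n = 7) against 52.1 ± 4.01 cpm in hippocampus (SD, n = 7) and 52.9 ± 4.87 cpm in cortex (SD, n = 8), with log2 fold changes of 1.06 and 1.03 (standard errors, 0.07; FDR = 3.32e-12 and 2.65e-12 by edgeR). Ago2 and Tnrc6a thus had opposite directions between hippocampus and cerebellum, where the filter favored a fall of Ago2 from hippocampus.

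**Figure D4:**
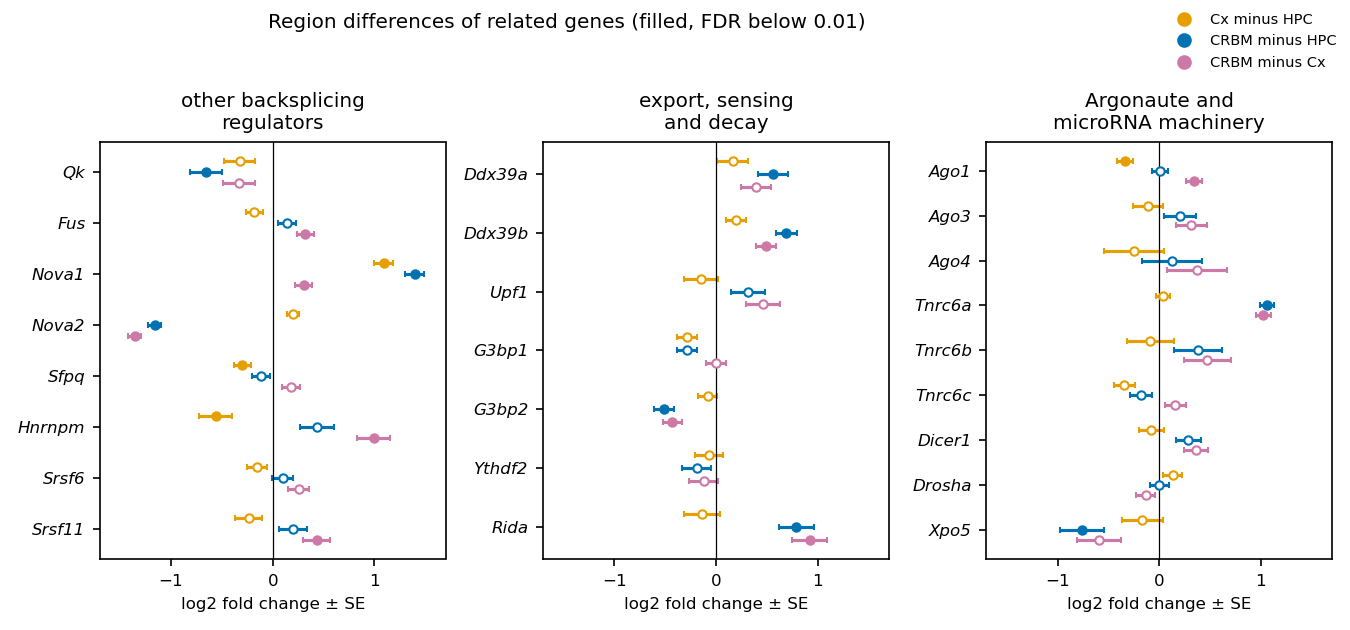
Differences between regions (x axis, log2 fold change, with bars for the standard error of edgeR's fit) for the tested genes of 3 lists related to the 8 genes, with filled points at an FDR below 0.01. Nova1 lay at 1.09 and 1.40 over hippocampus, Nova2 at -1.16 and -1.36 in cerebellum, and Tnrc6a at 1.06 and 1.03 in cerebellum.

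In CD mice, none of the 8 genes passed the test against WT mice in any region. By edgeR, 8 genes were tested in hippocampus and 7 each in cortex and cerebellum, where Ago2 did not reach the filter, and the number with an FDR below 0.01 was 0 in each, as it was for all genes tested (0%, 0% and 0%). The number with an unadjusted p below 0.05 was also 0, where 4.22%, 3.3% and 4.56% of all genes tested were, and so was the number with separate ranges of WT and CD, where 5.44%, 2.55% and 5.32% of all genes were. DESeq2 gave 0 calls among these genes as well. The lowest unadjusted value was that of Mbnl1 in cerebellum, at 20.1 ± 1.92 cpm in CD (SD, n = 3) and 23.5 ± 0.961 cpm in WT mice (SD, n = 4) (log2 fold change, -0.22; standard error, 0.13; FDR = 0.981 by edgeR). Its unadjusted value from the edgeR model over all genes was 0.107.

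The widest differences between genotypes were those of the genes with the fewest counts. Ago2 in hippocampus was 5.35 ± 0.833 cpm in CD (SD, n = 4) and 4.02 ± 1.34 cpm in WT mice (SD, n = 3), which differed by 0.41 on the log2 scale (standard error, 0.29; edgeR FDR = 0.997). Dhx9 in cortex was 6.81 ± 1.02 cpm in CD (SD, n = 4) and 5.33 ± 0.943 cpm in WT mice (SD, n = 4), which differed by 0.33 on the log2 scale (standard error, 0.24; edgeR FDR = 0.9999). In hippocampus Dhx9 had the opposite sign, at 10.1, 5.93, 5.02 and 6.10 cpm in CD mice m118, m138, m190 and m242 and 9.04, 8.48 and 7.04 cpm in WT mice (log2 fold change, -0.31; standard error, 0.26; edgeR FDR = 0.997). The highest value came from the library labelled CD hippocampus m118. Without it the CD hippocampi lay below all WT hippocampi in Dhx9 (log2 fold change, -0.52; standard error, 0.22; FDR = 0.998 by edgeR). The unadjusted p of Dhx9 was then 0.0415 from the edgeR model over all genes. In that fit Dhx9 was the 1 gene of the 8 with an unadjusted p below 0.05, as were 436 of all 9861 genes tested. How many of all genes had separate ranges in that fit was not counted. The library labelled CD hippocampus m118 was also the highest of the CD hippocampi in Adar, Adarb1, Ilf2, Mbnl2 and Ago2 and the lowest in Mbnl1 and Hnrnpl.

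The genes with more counts bounded the genotype difference more closely. Over hippocampus, cortex and cerebellum, the log2 fold changes of Adar were 0.10, -0.03 and -0.10, with standard errors of 0.12, 0.13 and 0.16. Those of Adarb1 were -0.05, -0.03 and -0.08, with standard errors of 0.17, 0.15 and 0.13. Those of Mbnl2 were 0.10, -0.04 and -0.07, with standard errors of 0.13, 0.13 and 0.09. Those of Hnrnpl were -0.09, 0.07 and 0.09, and those of Ilf2 were -0.12, -0.17 and -0.13, the 1 gene beside Adarb1 with the same sign in the 3 regions. Without the library labelled CD hippocampus m118, the hippocampus values became 0.05 for Adar, -0.14 for Adarb1, 0.01 for Mbnl2 and -0.01 for Hnrnpl. In the same fit Ilf2 was at -0.13, Mbnl1 at 0.18 in place of 0.10, and Ago2 at 0.32, with edgeR FDR values of 0.998. In a limma-voom fit of the 3 regions at once, in which each mouse was a random block, Ilf2 was at -0.16 (standard error, 0.10; FDR = 0.9997 by limma), with an unadjusted limma p of 0.134, and the other 7 genes had unadjusted limma p values of 0.234 to 0.950. In this fit 0% of all genes tested passed an FDR of 0.01 and 3.58% had an unadjusted p below 0.05, against 0 of the 8 genes in both.

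Whether the genotype difference itself differed between regions was tested in one model of all libraries. The edgeR interaction p values of the 8 genes ran from 0.230 for Dhx9 to 0.987 for Ilf2, with 0 below 0.05, where 3.91% of all genes tested were, and 0% of all genes passed an FDR of 0.05. Without the library labelled CD hippocampus m118, the number of the 8 genes called between genotypes stayed at 0 in hippocampus and over the regions at once.

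**Figure D5:**
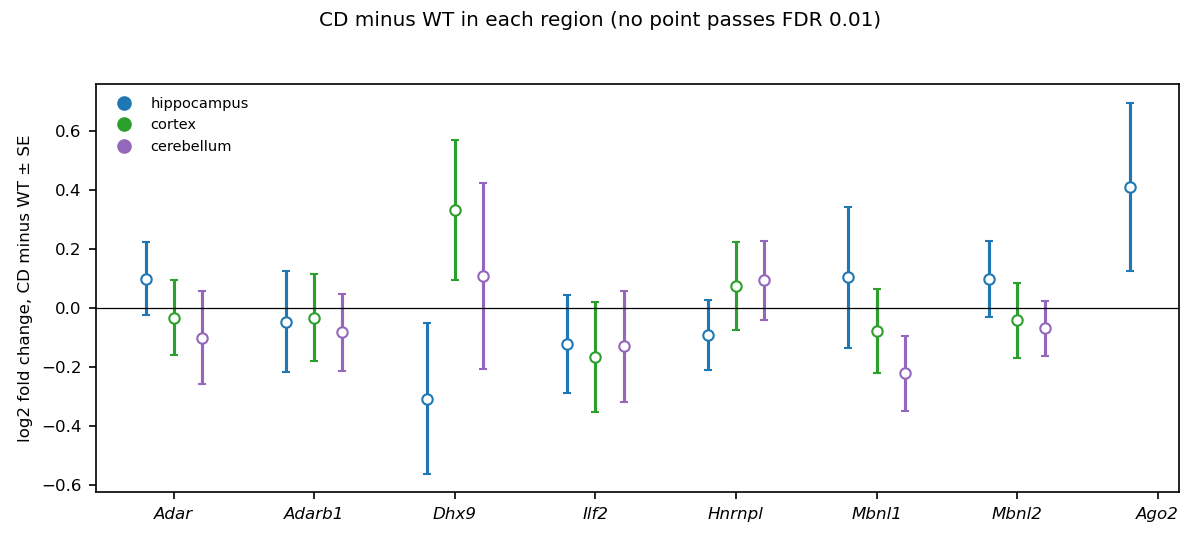
Differences between CD and WT mice (y axis, log2 fold change, with bars for the standard error of edgeR's fit) in hippocampus, cortex and cerebellum for the 8 genes. All points are open because 0 passed an FDR of 0.01, and the values run from -0.31 for Dhx9 to 0.41 for Ago2, both in hippocampus.

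Reads were assigned to transcripts that share most of their exons. In GRCm38, the RefSeq genes span chr3:89714469-89753455 (Adar, plus strand), chr10:77290727-77418292 (Adarb1, minus strand), chr1:153455756-153487688 (Dhx9, minus strand), chr3:90476201-90488379 (Ilf2, plus strand), chr7:28808546-28822268 (Hnrnpl, plus strand), chr3:60472559-60629750 (Mbnl1, plus strand), chr14:120275652-120431698 (Mbnl2, plus strand) and chr15:73101625-73184947 (Ago2, minus strand). The 14 transcripts of Mbnl1 with distinct counts differed by 0.49 to 0.57 on the log2 scale between the mean levels of hippocampus and cerebellum, and the 2 of Adarb1 differed by 0.83 and 0.91. A transcript of Hnrnpl with 10 counts in all went the other way from the main one between hippocampus and cerebellum, at -1.09 against 0.19, on too few counts to read. Genes on the opposite strand overlap Adar (Chrnb2), Ilf2 (Snapin), Ago2 (Chrac1), Mbnl2 (Gm26679) and Hnrnpl (Gm44702), and their values are uncertain to the extent that counting ignored strand, which is not given in the sources used here. Mbnl1 is overlapped by Gm37589 and Gm37488 on its own strand, so strand cannot separate reads where they overlap.

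Promoters were read for the 2 genes that were higher in cerebellum than in hippocampus, Adarb1 and Mbnl1, from 250 bases before to 50 after a RefSeq start in GRCm38.p6, and are printed 5′ to 3′ on the strand of the gene with GC boxes (GGGCGG on either strand) in capitals.
Adarb1, chr10:77418224-77418523, minus strand: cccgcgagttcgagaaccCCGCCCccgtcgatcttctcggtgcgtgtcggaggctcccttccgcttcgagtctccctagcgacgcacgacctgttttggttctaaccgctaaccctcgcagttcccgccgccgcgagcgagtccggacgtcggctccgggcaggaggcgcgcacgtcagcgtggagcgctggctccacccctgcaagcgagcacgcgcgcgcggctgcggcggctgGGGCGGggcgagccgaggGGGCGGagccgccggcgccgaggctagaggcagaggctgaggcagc
Mbnl1, chr3:60500929-60501228, plus strand: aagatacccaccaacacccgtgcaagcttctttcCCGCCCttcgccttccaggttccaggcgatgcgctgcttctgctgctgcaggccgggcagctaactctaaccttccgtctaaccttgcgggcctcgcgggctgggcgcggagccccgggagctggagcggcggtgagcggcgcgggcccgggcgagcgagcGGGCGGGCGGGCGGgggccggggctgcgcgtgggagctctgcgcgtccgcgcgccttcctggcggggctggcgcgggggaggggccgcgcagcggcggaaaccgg
The Adarb1 promoter held 3 GC boxes and was 73% G and C, and this second start of Mbnl1 held 4, in part overlapping, and was 75% G and C, beside a median of 52.7% over 32851 RefSeq promoters. The first start of Mbnl1, at chr3:60472580-60472879, was 39.3% G and C and held no GC box but a TATA box (TATAAA). Over all 32851 promoters, 35.7% held a GC box on either strand and 13.6% a TATA box, and a GC box was found in 7 of the 10 promoters listed for 7 of the 8 genes (those of Adar, Adarb1, Dhx9, Hnrnpl, Mbnl1 and Mbnl2). A CCAAT box (CCAAT, 37.4% of all promoters) was found in 6 of the 10, and an interferon-stimulated response element (3.44%) in 0 of the 10. The 3′ counts do not show from which start a transcript began.

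For each of the 8 genes, the 2 genes with the most similar profile over the 22 libraries were found by the root mean square difference of centered log2 cpm, among 11136 other genes. For Adarb1 these were Atp2a2, a calcium pump of the endoplasmic reticulum (0.16), and Msi2, an RNA-binding protein of the Musashi family (0.16), where the median over all genes was 0.51. For Mbnl1 they were Dnmt1, the maintenance DNA methyltransferase (0.18), and Zscan21 (0.20), and for Adar they were Ndel1 and Klc1 (both 0.16). For Ago2 they were Prdm16 and Acss1, at distances of 0.35 and 0.37 that were wider, with few counts behind the profile. The nearest genes were Exosc1 and Acp2 for Dhx9 (0.27 for both), BC004004 and Hif1an for Ilf2 (0.16 for both), Elob and Ube4b for Hnrnpl (both 0.13) and Cacul1 and Pikfyve for Mbnl2 (both 0.12). From their own means, the profiles of Ago2, Adarb1, Mbnl1 and Adar departed by 0.56, 0.36, 0.32 and 0.26. Those of Dhx9, Ilf2, Hnrnpl and Mbnl2 departed by 0.37, 0.22, 0.20 and 0.15. For a flat profile such as that of Mbnl2, a small distance thus says little. None of the 8 genes was among the nearest genes of another.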

How the data were processed

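The authors made 3′ end libraries with CelSeq2 from total RNA of dissected brain regions, aligned the reads to mm10 with STAR and counted them per RefSeq transcript with the End Sequence Analysis Toolkit (versions are not given in the sources used here), and deposited raw counts. Of 85964 transcripts, 69288 were matched to 23037 gene symbols, and the transcript with the highest total stood for a gene. The 8 genes, the lists and the tests were chosen with earlier results of these data known. Named were the 8 genes, their paralogs, the 2 most similar profiles for each, and genes of the other lists past FDR 0.01 and 2-fold.

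Counts were scaled by TMM and tested with the quasi-likelihood method of edgeR 4.0.16 in R 4.3.3, after a filter of 5 cpm (13.8 to 44.3 counts) in at least 2 libraries, with 6 group means for regions and within a region for genotype. Calls used an FDR below 0.01, and the study's limits add a fold above 2 or below 0.5. The genotype difference over regions was fitted with limma 3.58.1, with DESeq2 1.42.0 as an alternative. Region effects are means of both genotypes. Ratios used 0.5 added counts and scipy 1.17.1. Libraries came from 8 mice. The main fits of regions and of the interaction had no mouse term, so libraries of 1 mouse entered them as independent. Their p values measure the spread between libraries of a group, each from a different mouse. Libraries of a group differed by more than sampling noise (chi-square per degree of freedom, 6.20 to 19.1). Libraries of 1 mouse share an animal by their titles, and deviations from the group means of such pairs correlated at -0.08 to 0.18 over 20 pairs. The scripts were tested on simulated data. Promoter sequences are from RefSeq, GRCm38.p6, with 7 of the 8 genes matched, and the intron sequences are from the study's supplement. Alternatives were another scaling (RLE), no filter, DESeq2, summed or separate transcripts, a mouse block, 1 genotype alone and each library left out. Some listed genes and a ratio are not reported here.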

Additional observations from a re-analysis of the deposited data

Results flagged for a closer look

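Ago2 in the cortex of WT mouse m164 was at 0.919 cpm, from 4 counts, while the other WT cortices were at 3.18 to 3.56 cpm. The gap to its nearest neighbor was 0.859 of the range of the group, above Dixon's 95% limit of 0.829 for 4 libraries. Of 32 gene and group combinations tested in this way, chance gives about 1.6 such values. Without this library, the shift of Ago2/Ago1 from cortex to cerebellum was -0.95 in place of -0.68 on the log2 scale (two-sided exact permutation p = 0.03125 with 6 mice, the smallest they allow, in place of 0.0625 with 7).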

How the results depend on the processing

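Adarb1 between hippocampus and cerebellum was called under each of 30 alternatives, at 0.78 to 0.88 on the log2 scale, and no value turned its direction past a threshold. Of the 8 genes, the calls between hippocampus and cortex became 1 without the low-count filter, 0 in WT libraries alone, 0 in CD libraries alone and 4 at an FDR below 0.05 (2 as reported; 0 to 3 with a library left out). Between hippocampus and cerebellum they became 5 at an FDR below 0.05 (3 as reported), and between cortex and cerebellum 1 in WT and 0 in CD libraries alone (2 as reported; 1 to 3 with a library left out). Using 1 genotype leaves fewer libraries.

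Genes past FDR 0.01 and 2-fold numbered 937, 2539 and 2516 of 11137 tested in the 3 comparisons of regions. In the first they were 1471 of 22931 without the filter. With every distinct transcript kept they were 1492, 4482 and 4526 of 19542 features. At an FDR below 0.05 at any fold, a wider limit, 3954, 6840 and 6895 of 11137 passed. Between genotypes 0 were called as reported. Without the filter the numbers were 6, 3 and 10 of 20511, 20201 and 20000 genes tested in hippocampus, cortex and cerebellum. They were 2 and 1 in the first 2 regions with DESeq2 and 1 in cortex at an FDR below 0.05. With a library left out they were 0 to 1 in cortex and 0 to 1 in cerebellum. Interaction calls were 23 without the filter (0 in the main fit). More features were tested without the filter and with every transcript kept, and the cause of these changes was not tested.

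With the mouse as a replicate block, 926, 2548 and 2520 genes were called between regions and the block changed no call at FDR 0.01 for the 8 genes, and Ago2 fell short of 2-fold at -0.98. Ratios without the pairing by mouse were -0.43 for Mbnl2/Mbnl1 from hippocampus to cortex, -0.24 from cortex to cerebellum, and -0.68 for Ago2/Ago1 from cortex to cerebellum, with exact p values of 0.0014, 0.0146 and 0.0183. Summed transcripts gave -0.22 for Mbnl2/Mbnl1 from cortex to cerebellum (exact p = 0.03125). With a library left out, the shifts from hippocampus to cerebellum were 0.71 to 0.90 (Adarb1/Adar), -0.79 to -0.62 (Mbnl2/Mbnl1) and -1.18 to -0.94 (Ago2/Ago1), and from cortex to cerebellum -0.25 to -0.17 (Mbnl2/Mbnl1) and -0.95 to -0.58 (Ago2/Ago1). Ago2 did not reach the filter with summed or separate transcripts. Ago2 and Dhx9 had 4 to 43 and 11 to 71 counts per library, and their standard errors between regions were 0.18 to 0.25 on the log2 scale.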
